A study of Mus musculus with 9 samples.

Results

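Potassium channel subunits were followed in RNA-seq counts from mouse hearts, and their levels were compared between sham surgery, ligation of a coronary artery, and ligation with implanted cells. Members were taken by gene symbol: Kcn, then 1 or more letters, then a number, antisense transcripts left out. This rule found 92 of 53465 annotated genes, and 53 of the 92 had a mean of at least 0.5 CPM over all libraries, where CPM is a gene's count relative to the gene counts of its library, scaled with TMM factors. Just inside that level lay Kcnq5 (0.520 CPM) and Kcnh3 (0.557 CPM), and just outside it Kcnc4 (0.493 CPM) and Kcnk1 (0.472 CPM). At 1 CPM the number would be 47. All animals were NOD-SCID mice, an immunodeficient strain, so the sham hearts carry that background too. Each group has 3 libraries: sham surgery, coronary artery ligation, and ligation followed by implantation of FOXO3-GE-MPCs, a cell product whose abbreviation the labels do not spell out. The labels place the sampled tissue at the border of the infarct in every group, sham included, and give neither the time after surgery nor the age of the animals. For cell replicates 2 and 3, the labels' source field carries another FOXO number than the title and the treatment field, which name FOXO3 and were followed. The file headers of sham replicates 1 and 2 share a name stem, as do those of ligation replicates 2 and 3, so these pairs may not be independent samples. Because nothing states that the libraries came from separate animals, p-values measure only the spread between libraries, which may be technical.

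Potassium channels let potassium ions leave the cell and so end the cardiac action potential and hold the resting membrane potential. A pore subunit sets the type of current, and auxiliary subunits change how many channels reach the membrane and how they open and close. In mouse ventricle a large, fast transient outward current carries most of early repolarization, slower delayed rectifiers follow, inward rectifiers hold the resting potential or sense metabolism and acetylcholine, and background tandem-pore channels conduct at all voltages. Remodelling of these currents after infarction is a textbook feature of the injured ventricle.

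RefSeq held a promoter entry for 67 of the 92 members, on build GRCm38.p6. The 250 bases before the annotated start are printed here for 6 members that carry the results below: the pore subunit and the auxiliary subunit of the fast transient outward current (Kcnd2, Kcnip2), a delayed rectifier that fell after ligation (Kcna5), both subunits of the acetylcholine-activated channel (Kcnj3, Kcnj5), and the vascular ATP-sensitive pore (Kcnj8). Capitals mark matches, on either strand, to the core CCCACCC, a letter sequence bound by KLF factors, or to AGGTGT, bound by T-box factors. Each is written from 5′ to 3′ on the strand of the gene.
Kcnip2: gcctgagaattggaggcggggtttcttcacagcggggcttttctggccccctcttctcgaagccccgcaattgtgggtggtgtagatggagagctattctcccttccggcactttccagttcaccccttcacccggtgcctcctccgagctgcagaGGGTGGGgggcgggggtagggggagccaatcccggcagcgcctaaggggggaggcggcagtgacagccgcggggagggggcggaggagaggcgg
Kcnd2: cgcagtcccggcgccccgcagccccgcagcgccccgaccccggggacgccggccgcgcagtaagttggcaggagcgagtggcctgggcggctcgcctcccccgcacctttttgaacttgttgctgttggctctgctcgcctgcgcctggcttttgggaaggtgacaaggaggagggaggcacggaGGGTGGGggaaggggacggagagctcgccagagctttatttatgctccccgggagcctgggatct
Kcna5: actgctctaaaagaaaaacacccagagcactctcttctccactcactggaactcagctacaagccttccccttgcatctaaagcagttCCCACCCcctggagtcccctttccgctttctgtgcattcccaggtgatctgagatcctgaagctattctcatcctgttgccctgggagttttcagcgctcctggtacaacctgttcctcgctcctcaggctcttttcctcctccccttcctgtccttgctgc
Kcnj3: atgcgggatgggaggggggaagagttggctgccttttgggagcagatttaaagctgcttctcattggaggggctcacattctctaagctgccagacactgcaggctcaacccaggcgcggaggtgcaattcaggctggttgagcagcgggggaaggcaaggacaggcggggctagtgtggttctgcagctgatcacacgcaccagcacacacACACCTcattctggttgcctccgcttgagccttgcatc
Kcnj5: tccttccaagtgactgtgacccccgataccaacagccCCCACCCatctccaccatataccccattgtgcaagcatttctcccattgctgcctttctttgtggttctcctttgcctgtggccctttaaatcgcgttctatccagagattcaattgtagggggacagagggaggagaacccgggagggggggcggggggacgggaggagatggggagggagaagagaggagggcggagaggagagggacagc
Kcnj8: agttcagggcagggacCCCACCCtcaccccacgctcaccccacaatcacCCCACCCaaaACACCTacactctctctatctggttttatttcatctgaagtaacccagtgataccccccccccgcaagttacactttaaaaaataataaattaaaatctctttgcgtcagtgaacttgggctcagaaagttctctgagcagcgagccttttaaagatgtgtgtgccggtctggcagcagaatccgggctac
These windows lie at chr19:45816064-45816313 (minus strand), chr6:21215096-21215345 (plus), chr6:126535556-126535805 (minus), chr2:55435720-55435969 (plus), chr9:32344345-32344594 (minus) and chr6:142571615-142571864 (minus). The Kcnj8 window held CCCACCC 2 times and 1 match to the T-box letters, Kcnj3 held the T-box letters only, and each of the other 4 held CCCACCC or its reverse complement once. Among the 21 members called in the ligation or the cell comparison below, 12 had an entry, and 9 of these 12 (75%) held CCCACCC. The same letters stood in 7 of 16 other tested members with an entry (43.8%), in 9 of 39 members not tested (23.1%), and in 15.5% of all 27025 genes with an entry, 1 window of the same 250 bases per gene. Median GC content was 58.2% in the called members, 60.6% in the other tested members and 52% over all genes, and the part of base composition in these shares was not tested. FOXO letters (GTAAACA, in 3.09% of those genes), GATA letters (AGATAA, 10.3%) and the MEF2 core (3.23%) were in none of the 12 windows, AGGTGT (12%) was in 4 and the IRX letters ACANNTGT (6.29%) in 1. A match is a run of letters and not a measured binding site.

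Libraries held 4549268 to 7515052 gene counts, the lowest and the highest both in ligation, and 3 counts, taken as the detection floor, corresponded to 0.375 to 0.639 CPM. Mitochondrially encoded genes took 19.1% to 19.9% of gene counts in sham, 12.5% to 13.9% after ligation and 14.3% with cells. The 3 channel genes that mark ventricular muscle were present in all 9 libraries, Kcnip2 at 121 CPM or more, Kcnj2 at 27.1 CPM or more and Kcnd2 at 10.3 CPM or more. The border zone is a mixture of cells, and in bulk tissue fewer cells of a type and less RNA per cell cannot be told apart.

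Per kb of exon, which allows genes to be set beside each other, the background channel Kcnk3 had the highest level of the 92 genes, at 72.2 ± 2.8 CPM per kb in sham (SD, n = 3). Kcnip2 followed at 41.4 ± 0.909, then the silent subunit Kcng2 at 39.5 ± 2.2 and the cardiomyocyte ATP-sensitive pore Kcnj11 at 33.9 ± 4.48 CPM per kb. In the order over all libraries Kcnip2 (39.1 CPM per kb) and Kcng2 (37.4) lay within their spread of each other, while Kcnk3 (61.2) lay apart from both. The next levels over all libraries were Kcnj8 (19.0 CPM per kb), Kcna5 (15.4), Kcnh2 (14.0), Kcnj5 (10.1), Kcnq1 (6.49), Kcnj3 (6.14) and Kcnj2 (5.76), and neighbours among the last 3 differed by less than their spread over the 9 libraries. Of the pore genes of the fast transient outward current, Kcnd2 stood at 2.33 ± 0.419 and Kcnd3 at 0.858 ± 0.155 CPM per kb in sham, so their auxiliary subunit Kcnip2 was far more abundant as RNA than both pores. Of the 39 members below 0.5 CPM, 12 had 0 counts in every library, among them the pore gene Kcnh5. Kcne2, an auxiliary subunit studied mainly with Kcnh2, had 1 count in a single library of the 9.

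**Figure D1:**
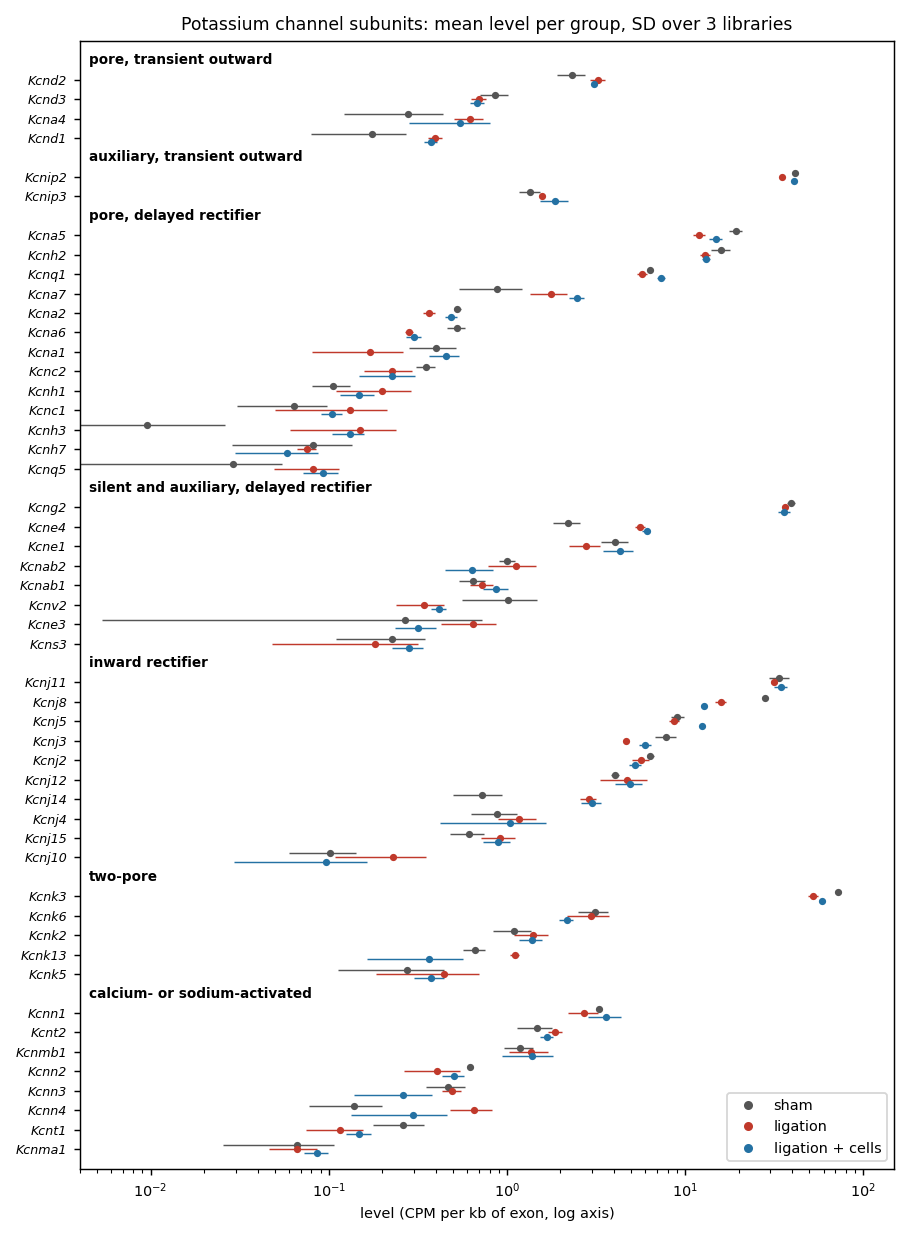
Mean level of the members named here with at least 0.5 CPM, in CPM per kb of exon on a log axis, with a point per group and a bar for the SD over 3 libraries, grouped by current. Kcnk3 lies furthest to the right with 72.2 CPM per kb in sham, and bars that would reach 0 run to the left edge.

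After ligation, the channel genes that changed included more that fell than rose. Delayed rectifier pores, the vascular ATP-sensitive pore Kcnj8, the atrial and nodal gene Kcnj3 and the background channel Kcnk3 fell. Kcnd2, Kcne4 and Kcnj14 rose. Of the 43 members with enough counts to be tested, 18 passed an adjusted p of 0.05 (41.9%), 6 higher and 12 lower. That is near the 38.2% of all 13825 tested genes that passed, 20.1% higher and 18% lower, so the total says nothing particular about channels. Among the 6 higher, Kcnd1 and Kcnn4 had enough counts to be tested only through their ligation and cell libraries. The median log2 fold change of the 43 was -0.11, beside 0.01 over all tested genes. Scaling by library totals alone put the median gene at 0.20 (log2), and the members then counted 10 higher and 7 lower. Libraries of the 2 groups did not overlap for 28 of the 43 members (65.1%), beside 47.6% of all genes. Summed over all 92 members, levels were 1237 to 1321 CPM in sham, 1026 to 1079 CPM after ligation and 1142 to 1158 CPM with cells, 3 ranges without overlap on the TMM scale. Relative to library totals, without TMM factors, they were 1134 to 1223 CPM, 1059 to 1133 CPM and 1169 to 1193 CPM, and sham and cells overlapped.

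With cells, against ligation alone, 7 members were higher and 2 were lower, 9 of 43 (20.9%), where 9.87% of all tested genes passed (4.19% higher, 5.69% lower). The higher ones included Kcnip2, Kcna5, Kcnq1, Kcne1, Kcnj5 and Kcnj3, and the lower ones were Kcnj8 and Kcnk13. The median over the 43 members was 0.04 on the log2 scale, beside 0.00195 over all genes. Libraries did not overlap for 16 of the 43 (37.2%), beside 27.2% of all genes. The count rests on small differences: DESeq2 called 4 of 43 (Kcnip2, Kcnj5, Kcnj8 and Kcnk13), beside 1058 of 13825 genes, where edgeR called 1365 genes. Without ligation replicate 1, 5 of 45 members were called, beside 1252 of 14062 genes. Without ligation replicate 2 it was 4 of 45, beside 951 of 14087 genes. Without cell replicate 3 it was 5 of 45, beside 1026 of 14108 genes. The ligation libraries serve both comparisons, with opposite signs, so the values of each comparison are given side by side below and no agreement between them is counted.

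**Figure D2:**
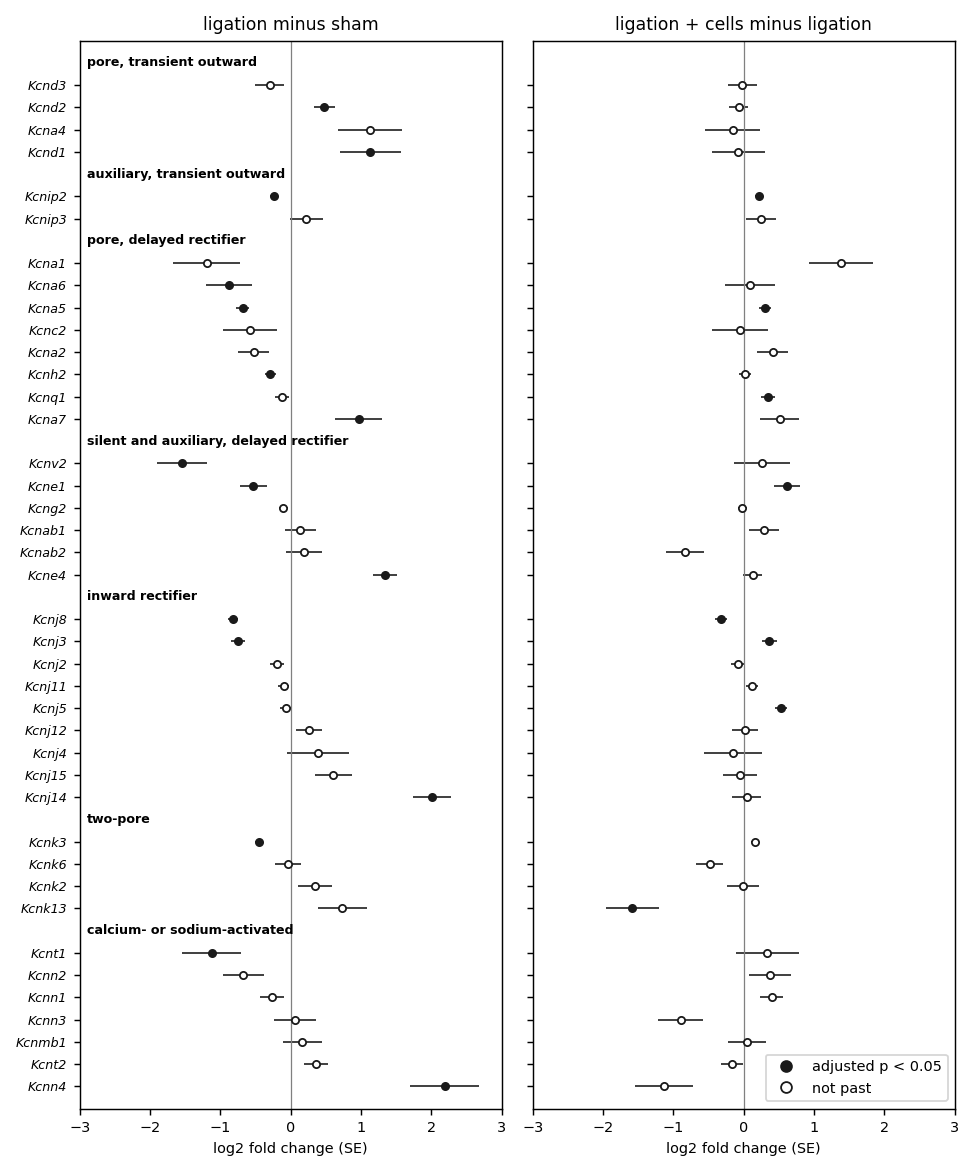
Log2 fold change of the tested members named here, with its SE, for ligation minus sham (left) and cells minus ligation (right), grouped by current. Filled points passed an adjusted p of 0.05, among them Kcne4 at 1.34 and Kcnj8 at -0.82 on the left and Kcnj5 at 0.53 and Kcnk13 at -1.58 on the right. Kcnd1 and Kcnn4, filled on the left, had enough counts to be tested only through their ligation and cell libraries.

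Against sham, the hearts with cells differed in 16 of 43 members (37.2%), 5 higher and 11 lower, where 40.9% of all genes passed (21% higher, 20% lower). Libraries did not overlap for 23 of the 43 (53.5%), beside 49.8% of all genes. Without sham replicate 2 the count of calls was 9. Members higher than in sham were Kcnd2, Kcna7, Kcne4, Kcnj14 and Kcnj5. The Kcnd2 call (log2 fold change 0.41, SE 0.145, edgeR adjusted p = 0.0311) was lost in 6 of 22 settings, among them DESeq2 and leaving out sham replicate 2 or 3 or cell replicate 1 or 3. Among the 11 lower were Kcnj8, Kcnj3, Kcnj2, Kcna5, Kcnh2, Kcnv2, Kcnk3, Kcnk6 and Kcnn3. Of these calls Kcnh2 was lost in 5 of 22 settings, library totals alone and leaving out sham replicate 2 or 3 or cell replicate 1 among them. Kcnj3 (edgeR adjusted p = 0.0679) and Kcnk3 (0.0637) were lost with library totals alone, and Kcnv2 without sham replicate 2 (0.0738). Kcnj5 was the only one of these 5 that ligation alone had not raised, with a log2 fold change of -0.07 (edgeR adjusted p = 0.576) after ligation and 0.46 (edgeR adjusted p = 8.65e-05) with cells against sham. Kcnip2 lay within the spread of sham in the cell group, at -0.03 (edgeR adjusted p = 0.733), and that value was 0.13 with library totals alone. Scaling by library totals turned the split of this comparison to 11 higher and 4 lower. It also put the median over all tested genes at 0.15 (log2), with 6310 of 13825 genes called.

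Of the 4 pore genes of the transient outward current, 2 passed as higher after ligation and none as lower (50%, beside 38.2% of all genes). The 2 were Kcnd2 and the sparse Kcnd1, whose limit is given below. With cells 0 of the 4 passed in edgeR, DESeq2 or limma-voom, and 0 had an unadjusted p below 0.05. Kcnd2, the main pore of the fast component in rodent ventricle, measured 14.4, 11.2 and 10.3 CPM in the sham libraries, 18.3, 15 and 16.8 CPM after ligation and 15.9, 15.7 and 15.8 CPM with cells. Every ligation library lay above every sham library, and the cell libraries lay among the ligation libraries. Its rise after ligation was 1.39-fold (log2 fold change 0.48, SE 0.146, edgeR adjusted p = 0.0138), with -0.07 (edgeR adjusted p = 0.814) for cells minus ligation, and without sham replicate 3 the call was lost (edgeR adjusted p = 0.0753). Kcnd3, the second pore of the fast component, measured 9.79, 8.07 and 6.83 CPM in the sham libraries, 6.82, 7.24 and 6.0 CPM after ligation and 6.81, 6.94 and 5.91 CPM with cells. The groups overlapped, and the difference did not pass after ligation (log2 fold change -0.30, SE 0.202, edgeR adjusted p = 0.265) or with cells (-0.02 (edgeR adjusted p = 0.966)). Per kb of exon, Kcnd2 made up 73.0% ± 0.866 (SD, n = 3) of the sum of Kcnd2 and Kcnd3 in sham, 82.2% ± 2.40 after ligation and 81.8% ± 1.34 with cells. All 3 ligation libraries had a larger Kcnd2 share than the sham libraries (exact permutation p = 0.1, the smallest that 3 against 3 allow, 0.157 adjusted over 33 such tests of ratios).

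Kcnd1, a sparse relative of these pores, measured 0.356, 1.32 and 1.11 CPM in the sham libraries, 2.13, 1.88 and 2.25 CPM after ligation and 1.84, 1.94 and 2.16 CPM with cells. Ligation libraries lay above sham. Sham counts were 2, 8 and 7, and the gene had enough counts to be tested only through its ligation and cell libraries. So no test of its rise is given, and its call as higher was lost in 16 of 22 alternative settings. Kcna4, the pore of the slow transient component, averaged 1.35 ± 0.761 CPM in sham and 2.99 ± 0.544 CPM after ligation. Its libraries did not overlap, but it missed the threshold (log2 fold change 1.13, SE 0.451, edgeR adjusted p = 0.0553).

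Kcnip2 encodes the auxiliary subunit that the fast transient outward channels need for normal surface levels. It measured 144, 147 and 141 CPM in the sham libraries, 121, 122 and 124 CPM after ligation and 145, 139 and 141 CPM with cells. Ligation libraries were the lowest without overlap, and the cell libraries overlapped the sham libraries. It fell after ligation (log2 fold change -0.24, SE 0.0545, edgeR adjusted p = 0.0016) and was higher with cells than with ligation alone (log2 fold change 0.21, SE 0.0541, edgeR adjusted p = 0.0144), a difference of 1.16-fold. With library totals alone the drop after ligation was not past the threshold (-0.05, edgeR adjusted p = 0.509), and the difference with cells was lost without ligation replicate 2 or cell replicate 1. The ratio of Kcnip2 to the sum of Kcnd2 and Kcnd3, per kb, was 13.3 ± 2.15 in sham, 8.96 ± 0.720 after ligation and 10.9 ± 0.225 with cells (SD, n = 3). Ligation libraries were below both other groups in this ratio (exact permutation p = 0.1 for each, the smallest possible). Kcnip3, the other member of this family that was tested, did not pass in either comparison (0.22 (edgeR adjusted p = 0.50) and 0.25 (edgeR adjusted p = 0.56)).

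**Figure D3:**
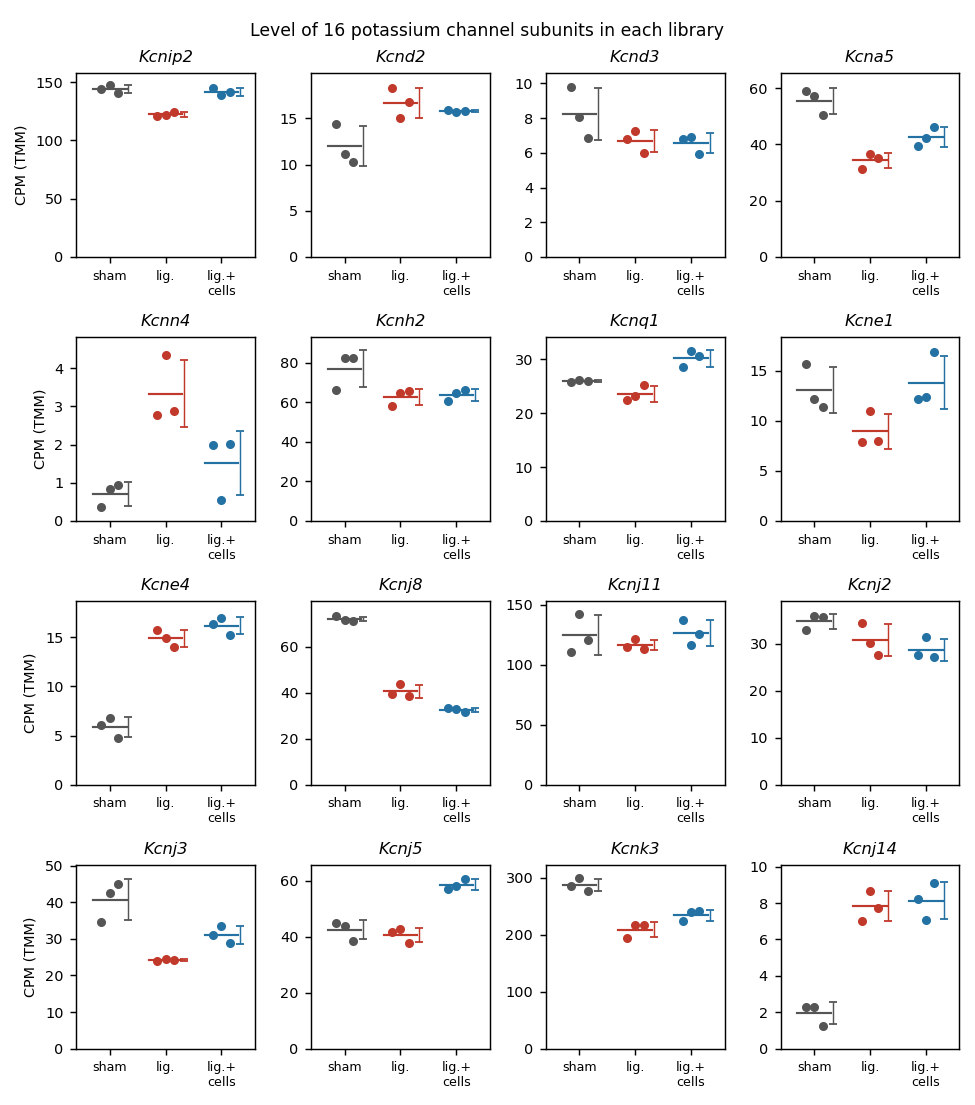
CPM of 16 members in each of the 9 libraries, with the group mean as a line and the SD as a bar, each panel starting at 0. Kcnj8 steps down from sham (71.3 to 73.2 CPM) to ligation (38.6 to 43.8) to cells (31.4 to 33.3), and Kcnj5 is highest with cells.

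Of 11 tested delayed rectifier pores, 5 fell after ligation, 1 rose and 5 did not pass (54.5% called, beside 38.2% of all genes), with a median log2 fold change of -0.58 beside 0.01 over all genes. With cells 3 of 11 were higher and none lower (27.3%, beside 9.87% of all genes), with a median of 0.27 beside 0.00195 over all genes, while DESeq2 called 0 of the 11, 4 of which had an unadjusted p below 0.05. Kcna5, whose channel carries a rapidly activating sustained current in mouse ventricle and the ultrarapid current of atria, measured 59.1, 57.2 and 50.3 CPM in the sham libraries, 31.3, 36.6 and 35 CPM after ligation and 39.3, 42.3 and 46.2 CPM with cells. The 3 groups did not overlap, with ligation lowest and the cell group between. It fell to 0.623 of the sham level (log2 fold change -0.68, SE 0.090, edgeR adjusted p = 3.76e-06), which held in all 22 alternatives, and was 1.23-fold higher with cells (log2 fold change 0.30, SE 0.091, edgeR adjusted p = 0.0383), which was lost in 11 of 22, among them the sum of libraries with a shared header stem (edgeR adjusted p = 0.0613).

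Kcnh2, the pore of the rapid delayed rectifier that many drugs block in the human heart, measured 66.2, 82.5 and 82.2 CPM in the sham libraries, 58.2, 64.7 and 65.5 CPM after ligation and 60.4, 64.8 and 66.4 CPM with cells. Ligation libraries lay just below the sham libraries, and the cell libraries overlapped both. It fell after ligation (log2 fold change -0.29, SE 0.0825, edgeR adjusted p = 0.0083) but not with library totals alone (-0.10, edgeR adjusted p = 0.355), nor without sham replicate 2 (0.0501) or sham replicate 3 (0.0537), and the difference with cells was 0.02 (edgeR adjusted p = 0.926). Kcnq1, the pore of the slow delayed rectifier, measured 25.8, 26.2 and 25.9 CPM in the sham libraries, 22.4, 23.2 and 25.2 CPM after ligation and 28.5, 31.5 and 30.5 CPM with cells. The cell libraries were above all others. The difference after ligation was -0.13 (edgeR adjusted p = 0.329), and 0.06 with library totals alone, while with cells Kcnq1 was 1.27-fold higher than after ligation (log2 fold change 0.35, SE 0.0957, edgeR adjusted p = 0.0231). That call was lost in 6 of 22 settings, with DESeq2 and without ligation replicate 1 or 2 or cell replicate 2 or 3 among them.

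Sparse delayed rectifier pores also passed. Kcna6, a pore known mainly from nerve, measured 3.03, 2.8 and 3.49 CPM in the sham libraries, 1.7, 1.59 and 1.75 CPM after ligation and 1.99, 1.66 and 1.73 CPM with cells. It fell after ligation (log2 fold change -0.88, SE 0.33, edgeR adjusted p = 0.0414), a call lost in 15 of 22 settings. Of its exon length, 39.6% overlaps the antisense gene Gm26673, and without a stated strand setting its reads are uncertain. Kcna7, a pore of heart and skeletal muscle, went the other way. It measured 1.07, 2.47 and 2.22 CPM in the sham libraries, 4.69, 2.89 and 4.0 CPM after ligation and 4.82, 5.83 and 5.62 CPM with cells. Ligation and cell libraries all lay above sham, and the rise after ligation was 1.95-fold (log2 fold change 0.96, SE 0.337, edgeR adjusted p = 0.0288). Leaving out sham replicate 1, ligation replicate 1 or ligation replicate 3 ended that call. Kcna1, Kcna2 and Kcnc2 did not pass in either comparison. Of these Kcna1 came nearest, averaging 1.91 ± 0.56, 0.814 ± 0.429 and 2.17 ± 0.416 CPM in sham, ligation and cells, with log2 fold changes of -1.2 (edgeR adjusted p = 0.0527) and 1.39 (edgeR adjusted p = 0.0583).

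Of 6 tested silent and auxiliary subunits, 1 rose and 2 fell after ligation (50%, beside 38.2% of all genes), and 1 was higher with cells (16.7%, beside 9.87%). Kcne1, the small subunit that slows the Kcnq1 channel, measured 15.7, 12.2 and 11.4 CPM in the sham libraries, 7.88, 11 and 8.0 CPM after ligation and 12.2, 12.3 and 16.9 CPM with cells. Ligation libraries were lowest, and the cell libraries overlapped the sham libraries. It fell after ligation (log2 fold change -0.53, SE 0.188, edgeR adjusted p = 0.0308) and was 1.53-fold higher with cells (log2 fold change 0.61, SE 0.183, edgeR adjusted p = 0.0378), and each call was lost when some single libraries were left out. The drop was also lost with library totals alone (edgeR adjusted p = 0.148). The ratio of Kcne1 to Kcnq1 per kb was 0.643 ± 0.114 in sham, 0.486 ± 0.106 after ligation and 0.582 ± 0.107 with cells, with overlapping groups.

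Kcne4, a relative of Kcne1 that reduces the current of several voltage-gated pores, showed the clearest rise of the auxiliary genes. It measured 6.05, 6.75 and 4.76 CPM in the sham libraries, 15.8, 14.9 and 14 CPM after ligation and 16.3, 16.9 and 15.3 CPM with cells. Every ligation and cell library was above every sham library, and the cell libraries overlapped those after ligation. The rise was 2.53-fold (log2 fold change 1.34, SE 0.164, edgeR adjusted p = 1.48e-06) and held in all 22 alternatives, with 0.13 (edgeR adjusted p = 0.646) for cells minus ligation. Kcnv2, a silent subunit that forms channels only with pore subunits of other genes, measured 3.74, 7.91 and 3.97 CPM in the sham libraries, 1.28, 2.32 and 1.62 CPM after ligation and 1.99, 2.36 and 2.02 CPM with cells. Sham libraries were above all others, with sham replicate 2 highest. It fell after ligation to 0.343 of sham (log2 fold change -1.54, SE 0.356, edgeR adjusted p = 0.00167), with a difference of 0.25 (edgeR adjusted p = 0.766) with cells. Kcng2, the most abundant silent subunit, did not pass (118 ± 6.56 CPM in sham, 109.5 ± 1.32 after ligation, 108 ± 8.08 with cells). Kcnab1 and Kcnab2, cytoplasmic beta subunits, did not pass either, Kcnab2 with -0.84 (edgeR adjusted p = 0.0573) for cells minus ligation.

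Of 9 tested inward rectifiers, 2 fell and 1 rose after ligation, 33.3% beside 38.2% of all genes. With cells 2 were higher and 1 was lower, 33.3% beside 9.87% of all genes. The ATP-sensitive pores differed from each other. Kcnj8, the pore of ATP-sensitive channels of vascular smooth muscle, pericytes and endothelium, measured 73.2, 71.5 and 71.3 CPM in the sham libraries, 39.4, 43.8 and 38.6 CPM after ligation and 33.3, 32.7 and 31.4 CPM with cells. The groups stepped down without overlap. It fell to 0.565 of sham after ligation (log2 fold change -0.82, SE 0.0738, edgeR adjusted p = 1.73e-08) and was lower again with cells (log2 fold change -0.32, SE 0.079, edgeR adjusted p = 0.0106), a second step lost without ligation replicate 2 (edgeR adjusted p = 0.0801). Kcnj11, the pore of the ATP-sensitive channel of heart muscle, measured 111, 143 and 121 CPM in the sham libraries, 115, 121 and 113 CPM after ligation and 138, 117 and 125 CPM with cells. The groups overlapped, and it did not pass after ligation (-0.10 (edgeR adjusted p = 0.356), 0.09 with library totals alone) or with cells (0.12 (edgeR adjusted p = 0.417)). The ratio of Kcnj8 to Kcnj11 per kb was 0.842 ± 0.117 in sham, 0.503 ± 0.0159 after ligation and 0.372 ± 0.0291 with cells (SD, n = 3), each group apart from the others (exact permutation p = 0.1, the smallest possible).

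Kcnj3 and Kcnj5 form the acetylcholine-activated channel, which slows the pacemaker and shortens the atrial action potential. Kcnj3 measured 34.5, 42.5 and 45.1 CPM in the sham libraries, 23.9, 24.6 and 24.1 CPM after ligation and 30.9, 33.6 and 28.8 CPM with cells. The groups did not overlap, with ligation lowest. It fell to 0.594 of sham (log2 fold change -0.75, SE 0.105, edgeR adjusted p = 7.74e-06) and was 1.28-fold higher with cells (log2 fold change 0.36, SE 0.106, edgeR adjusted p = 0.0343), the second call lost in 8 of 22 settings. The antisense gene Gm26794 overlaps 31.1% of its exon length, so its counts may hold reads of both. Kcnj5 measured 45, 44 and 38.6 CPM in the sham libraries, 41.5, 42.7 and 37.9 CPM after ligation and 57, 58 and 60.8 CPM with cells. Sham and ligation overlapped, and all 3 cell libraries were higher. The difference with cells was 1.44-fold (log2 fold change 0.53, SE 0.0795, edgeR adjusted p = 1.14e-04) and held in all 22 alternatives, with -0.07 (edgeR adjusted p = 0.576) after ligation. The ratio of Kcnj5 to Kcnj3 per kb was 1.19 ± 0.251 in sham, 1.87 ± 0.108 after ligation and 2.11 ± 0.218 with cells (SD, n = 3). Sham libraries were below the others (exact permutation p = 0.1, the smallest possible), and ligation and cells overlapped.

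Kcnj2, the main strong inward rectifier of mouse ventricle, which holds the resting potential, measured 32.9, 35.7 and 35.6 CPM in the sham libraries, 34.3, 30.1 and 27.6 CPM after ligation and 27.5, 31.3 and 27.1 CPM with cells. Ligation libraries overlapped both other groups, and every cell library lay below every sham library. The difference was -0.20 (edgeR adjusted p = 0.133) after ligation and -0.08 (edgeR adjusted p = 0.687) with cells. Cells against sham passed (log2 fold change -0.28, SE 0.0989, edgeR adjusted p = 0.0294), a call lost in 7 of 22 settings, among them DESeq2, library totals alone, and leaving out sham replicate 2 or 3 or cell replicate 1 or 3. Kcnj12, its partner in the same channels, averaged 11.1 ± 0.527, 12.9 ± 3.83 and 13.5 ± 2.37 CPM and did not pass. Kcnj14, a sparse relative, measured 2.31, 2.31 and 1.27 CPM in the sham libraries, 7.03, 8.68 and 7.75 CPM after ligation and 8.23, 7.07 and 9.08 CPM with cells. All ligation and cell libraries were well above sham, and the rise was 4.01-fold (log2 fold change 2.0, SE 0.267, edgeR adjusted p = 4.38e-06), with 0.04 (edgeR adjusted p = 0.927) for cells minus ligation. Of its 31-base sequences 35.6% also occur in the processed pseudogene Gm5522, so the source of these reads is uncertain. Kcnj4 and Kcnj15 did not pass in either comparison.

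Among the 4 tested tandem-pore genes, 1 fell after ligation (25%, beside 38.2% of all genes) and 1 was lower with cells (25%, beside 9.87%). Kcnk3, the acid-sensitive background channel, measured 286, 299 and 277 CPM in the sham libraries, 194, 216 and 216 CPM after ligation and 223, 239 and 241 CPM with cells. Every ligation library lay below every sham library, and the cell libraries lay between. It fell to 0.729 of sham (log2 fold change -0.46, SE 0.0556, edgeR adjusted p = 1.30e-06) in all 22 alternatives, and the difference with cells did not pass (log2 fold change 0.16, SE 0.0556, edgeR adjusted p = 0.0676). Kcnk13, known from microglia among other cells, measured 1.96, 1.81 and 2.38 CPM in the sham libraries, 3.62, 3.47 and 3.25 CPM after ligation and 1.84, 0.694 and 0.864 CPM with cells. The cell libraries lay below all ligation libraries, at 0.334 of their level (log2 fold change -1.58, SE 0.377, edgeR adjusted p = 0.00861), and without cell replicate 2 this was not past the threshold (edgeR adjusted p = 0.0507). The difference after ligation was 0.73 (edgeR adjusted p = 0.108). Kcnk2, a stretch-sensitive channel, and Kcnk6 passed neither after ligation nor with cells against ligation. Kcnk6 was lower with cells against sham (log2 fold change -0.53, SE 0.192, edgeR adjusted p = 0.0336), a call lost in 7 of 22 settings, DESeq2 and library totals alone among them.

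Of 7 tested calcium- or sodium-activated genes, 1 rose and 1 fell after ligation, 28.6% beside 38.2% of all genes. With cells 0 passed in edgeR, DESeq2 or limma-voom, and 3 had an unadjusted p below 0.05. Kcnn4, the intermediate-conductance calcium-activated channel of leukocytes, endothelium and dividing fibroblasts, measured 0.356, 0.824 and 0.952 CPM in the sham libraries, 2.77, 4.34 and 2.88 CPM after ligation and 1.99, 0.555 and 2.02 CPM with cells. Ligation libraries were above all others. Kcnn4 is the gene counted as risen, but its sham counts were 2, 5 and 6. It had enough counts to be tested only through its ligation and cell libraries, so no test of its rise is given. The difference with cells against ligation was -1.14 (edgeR adjusted p = 0.090). Kcnt1, a sodium-activated pore, measured 3.38, 2.14 and 1.9 CPM in the sham libraries, 1.07, 0.724 and 1.5 CPM after ligation and 1.56, 1.53 and 1.15 CPM with cells. Sham libraries were the highest, and it fell after ligation (log2 fold change -1.13, SE 0.418, edgeR adjusted p = 0.0391), a call lost in 10 of 22 settings. The small-conductance gene Kcnn1 averaged 15.1 ± 0.213, 12.5 ± 2.34 and 16.5 ± 3.47 CPM. Neither it nor Kcnn2, Kcnn3, Kcnt2 or Kcnmb1 passed after ligation or with cells against ligation, while Kcnn3 was lower with cells against sham (log2 fold change -0.84, SE 0.325, edgeR adjusted p = 0.0451), a call lost in 10 of 22 settings.

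The 10 members with at least 0.5 CPM that were too sparse for the test were Kcnma1, Kcnj10, Kcnh1, Kcnh7, Kcnc1, Kcnh3, Kcnq5, Kcne3, Kcns3 and Kcnk5. Kcnh3 had 0, 1 and 0 counts in the sham libraries, at or under the floor, and averaged 0.862 ± 0.511 CPM after ligation. It reached 0.5 CPM only through the ligation and cell groups, so no test of it is given. The test was also run on all genes with a mean of at least 0.5 CPM. Apart from Kcnh3, none of the 10 passed in edgeR in any comparison between groups, and none had an unadjusted p below 0.05.

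Genes that are no channels but work with them were read from lists of their own. Of 15 partner genes 9 were tested: 3 rose and 3 fell after ligation (66.7%, beside 38.2% of all genes). With cells 0 passed in edgeR, DESeq2 or limma-voom (beside 9.87% of all genes in edgeR), where 1 had an unadjusted p below 0.05. Abcc9, the regulatory subunit that joins Kcnj8 and, in ventricle, Kcnj11, fell from 183 ± 5.22 to 124 ± 3.14 CPM (log2 fold change -0.56, SE 0.0577, edgeR adjusted p = 1.16e-07) and stood at 122 ± 6.79 CPM with cells. Abcc8, the other such subunit, did not pass. Akap9, an anchoring protein of the Kcnq1 channel, averaged 43.2 ± 2.42 CPM in sham and 58.2 ± 3.26 CPM after ligation, a rise (log2 fold change 0.43, SE 0.0744, edgeR adjusted p = 9.31e-05). Of 10 transcription factors known to act on cardiac channel genes, 9 were tested. After ligation 3 rose (Tbx20, Tbx5 and Gata4) and 0 fell, 33.3% beside 38.2% of all genes. With cells 3 were higher (Irx4, Tbx20 and Gata4) and Klf15 was lower, 44.4% beside 9.87% of all genes. DESeq2 called 2 higher and 0 lower with cells, with 5 at an unadjusted p below 0.05. Irx4, a ventricular factor, averaged 31.9 ± 1.29, 27.4 ± 1.43 and 33.8 ± 0.381 CPM. Klf15, whose known targets include Kcnip2, averaged 39.2 ± 0.164, 40.5 ± 3.83 and 33 ± 3.78 CPM.

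Markers of several cell types moved with the groups. Of 9 cardiomyocyte markers, 7 fell and 1 rose (Ryr2) after ligation, and their sum was 54294 to 55962 CPM in sham, 40352 to 42163 after ligation and 39665 to 40512 with cells. With cells 2 of these 9 markers were higher and 2 lower than after ligation (44.4%, beside 9.87% of all genes), and the sums of both groups overlapped. Endothelial markers fell in 6 of 7, and Vwf rose (sum 2112 to 2245 CPM in sham, 1459 to 1566 after ligation, 1557 to 1602 with cells). Mural cell markers fell in 3 of 7 tested and rose in 2, their sum going from 1645 to 1687 CPM in sham to 1252 to 1262 after ligation and 1238 to 1265 with cells. Among them Myh11, Acta2 and Rgs5 fell, Cspg4 and Notch3 rose, and the difference in Pdgfrb was 0.02 (edgeR adjusted p = 0.874). The sham and ligation libraries of Notch3 overlapped (edgeR adjusted p = 0.0455), and DESeq2 called only 1 mural marker higher. With cells against ligation Cspg4, Notch3 and Vwf were lower (-0.25 (edgeR adjusted p = 0.0354), -0.28 (edgeR adjusted p = 0.0179) and -0.34 (edgeR adjusted p = 0.0012)), while Acta2, Kdr and Tek were higher. Ratios of Kcnj8 to each of the 14 tested mural and endothelial markers were described by their ranges. After ligation the ratio was below sham without overlap for 7 of 7 mural and 5 of 7 endothelial markers, and overlapped sham for Kdr and Egfl7. With cells it was below ligation without overlap for 4 of 7 mural markers, Rgs5 among them, and 6 of 7 endothelial ones, and overlapped ligation for Cspg4, Notch3, Pdgfrb and Vwf. So the second step of Kcnj8 was seen relative to some vascular markers and not to others. Of these ratios that to Rgs5 was also tested, at 0.0816 ± 0.00122 in sham, 0.0678 ± 0.00490 after ligation and 0.0558 ± 0.00276 with cells (exact permutation p = 0.1 for each pair, the smallest possible, 0.157 adjusted over 33). The part of vascular cell number in the Kcnj8 values was not tested beyond this.

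Atrial markers stood beside Kcnj3 and Kcnj5. Nppa and Mybphl rose after ligation and Myl7, Myl4 and Sln fell, and with cells 4 were higher (Myl7, Myl4, Sln and Mybphl) and Nppa did not pass. Bmp10 had 0, 1 and 1 counts in the sham libraries. It had enough counts to be tested only through the ligation group, so no test of it is given. Myl7, the atrial myosin light chain, averaged 157 ± 5.54, 98.8 ± 9.67 and 299 ± 14.8 CPM in sham, ligation and cells. The sum of the 6 was 486 to 576 CPM in sham, 861 to 1628 after ligation and 1615 to 2225 with cells, and its rise after ligation came from Nppa, which averaged 107 ± 34.4 CPM in sham and 895 ± 369 CPM after ligation. The ratio of Kcnj3 to Myl7 was 0.258 ± 0.0294, 0.247 ± 0.0243 and 0.104 ± 0.0114 in sham, ligation and cells, with sham and ligation overlapping. The ratio of Kcnj5 to Myl7 was 0.271 ± 0.0309, 0.413 ± 0.0157 and 0.196 ± 0.00337, 3 groups without overlap. In both ratios every cell library lay below all others (exact permutation p = 0.1, the smallest possible, 0.157 adjusted over 33). Over the 5 atrial markers above 0 in every library, the ratios of both genes were lower with cells than with ligation without overlap for 4 and overlapped for Nppa. After ligation the Kcnj3 ratio was below sham for 3 and overlapped for 2, and the Kcnj5 ratio was above sham for 2, below for 2 and overlapped for 1. Of 5 tested conduction system markers 2 fell and 1 rose after ligation, and 2 were higher with cells, with Isl1 at or near 0 throughout (at most 0.0833 ± 0.144 CPM in a group). How much atrial or nodal tissue each sample held was not measured, and its part in the Kcna5 values was not tested.

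Leukocyte markers rose after ligation in 6 of 6 tested and were lower with cells in 6 of 6, their sum over all 8 being 368 to 399 CPM in sham, 763 to 793 after ligation and 313 to 328 with cells. Kcnk13 and Kcnn4 stood beside these. The ratio of Kcnk13 to the macrophage gene Csf1r was 0.0415 ± 0.00977 in sham, 0.0443 ± 0.00310 after ligation and 0.0400 ± 0.0188 with cells, with overlapping groups. The ratio of Kcnn4 to Csf1r was 0.0147 ± 0.00745, 0.0429 ± 0.0121 and 0.0534 ± 0.0273, sham lowest without overlap (exact permutation p = 0.1, the smallest possible). Kcnn4 was sparse in sham, at 2, 5 and 6 counts. The part of leukocyte number in the 2 genes was not tested. Fast skeletal muscle markers summed to 3.74 to 7.25 CPM in sham, 11.1 to 15.6 after ligation and 2.27 to 3.89 with cells. Schwann cell and neuron markers summed to 28.8 to 34.4, 55.3 to 69.8 and 79.2 to 93.9 CPM, and fibroblast markers rose in 5 of 7 after ligation. Pdgfra, of the same list, had a log2 fold change of -0.20 (edgeR adjusted p = 0.049), and neither DESeq2 nor limma-voom called it.

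**Figure D4:**
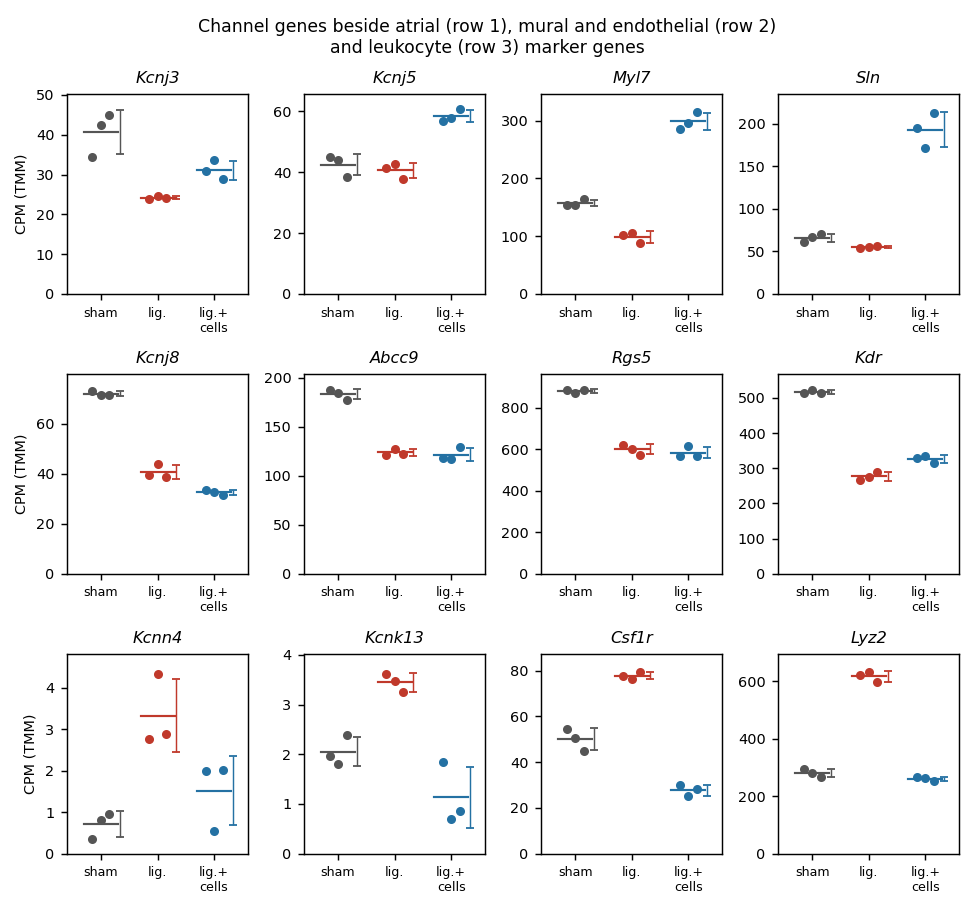
CPM in each library of 6 channel or partner genes beside 6 marker genes, with the group mean as a line and the SD as a bar, each panel starting at 0. The means of Kcnk13 and Csf1r are highest after ligation and lowest with cells (3.45 and 77.9 CPM, 1.13 and 27.8 CPM), and those of Kcnj5, Myl7 and Sln are highest with cells.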

How the data were processed

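The 9 RNA-seq libraries came from border zone tissue of NOD-SCID mouse hearts, made with TRIzol extraction and the NEBNext Ultra RNA kit per the labels' protocols. The authors deposited raw counts per gene, 1 file per library, with closing lines named as htseq-count writes them. The submitters' processing notes name build mm10, and aligner, counting settings, strand setting and annotation release are not given in the sources used here. Reads naming no gene (12.3% to 13.6%) were left out. Symbols, exon length, overlap and shared sequences of 31 bases came from GENCODE M21 on GRCm38.

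Groups and replicate numbers came from the sample titles. In R 4.3.3, edgeR 4.0.16 (filterByExpr, TMM factors, glmQLFit, glmQLFTest) was fitted to all 9 libraries with a mean per group and 6 residual degrees of freedom. P-values are two-sided and Benjamini-Hochberg adjusted over 13825 genes, with a threshold of 0.05. The SE is the log2 fold change divided by the square root of F. CPM errors are SDs over 3 libraries, and limits from counts cover counting error only. Ratios between genes were compared with exact two-sided permutation tests over libraries, 33 in all. The fitting script was tested on simulated data. Alternatives, 22 per member, covered scaling, filters, DESeq2 1.42.0, limma-voom 3.58.1, 2-group fits, removal of mitochondrial genes, the replicate block, leaving out each library, and a threshold of 0.01. One chosen after seeing the data sums the counts of libraries with a common stem in their file headers. Another added alternative, for counts of calls only, left out members sharing 10% or more of their 31-base sequences.

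Members with a mean of at least 0.5 CPM could be named, with values in each library for those past the threshold with no overlap and for 11 fixed genes. Members and lists were chosen with earlier results of these data known. Replicate pairs all differed by more than counting noise (mean chi-square per gene 1.98 to 3.96). Some members and listed genes count in the totals but are not reported by name here.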

Additional observations from a re-analysis of the deposited data

How the results depend on the processing

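Counts of all genes called are given beside those of members. Cells against ligation gave 9 members and 1365 genes: 4 and 1058 with DESeq2, and 2 and 739 at an adjusted p under 0.01. When 1 library was left out, 4 to 8 members and 951 to 1398 genes were called (5 members without ligation replicate 1, 4 without ligation replicate 2, 5 without cell replicate 3). Cells against sham gave 16 members and 5661 genes, with 10 and 4126 at an adjusted p under 0.01. With 1 library left out it gave 9 to 17 members and 5055 to 5746 genes (9 and 5055 without sham replicate 2). Ligation against sham gave 18 members and 5277 genes, with 12 and 3803 at an adjusted p under 0.01. When 1 library was left out it gave 14 to 18 members and 4482 to 5459 genes. Summing libraries with a shared header stem gave 15 members after ligation (4571 genes), 7 with cells against ligation (1101 genes) and 15 against sham (5409 genes). Leaving out members with shared sequence gave 15, 8 and 14 of 38 tested members in that order.

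The replicate numbers did not pair the libraries: deviations of libraries with the same number correlated between -0.0544 and 0.0589 over genes. With the replicate number as a block, 15, 6 and 16 members were called in the same order, beside 5134, 1230 and 5511 genes.

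Some differences that never passed the threshold turned in sign. Kcnd3 in cells minus ligation was 0.0444 without ligation replicate 2 and 0.0449 without cell replicate 3 (range with 1 library left out -0.104 to 0.0449). Kcnh2 in cells minus ligation was -0.0124 with library totals alone, -0.0299 without ligation replicate 1 and -0.0117 without cell replicate 3 (range -0.0299 to 0.0571). Kcnj11 in ligation minus sham was 0.0873 with library totals alone and 0.00656 without sham replicate 2 (range -0.179 to 0.00656), and in cells minus sham it was -0.0617, -0.00425 and -0.0449 without sham replicate 1, sham replicate 3 and cell replicate 1 (range -0.0617 to 0.124). With library totals alone Kcnq1 was 0.0593 in ligation minus sham and Kcnip2 was 0.133 in cells minus sham. The cause was not tested.

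Calls of sparse members lay near the threshold: those of Kcnd1, Kcna6 and Kcnt1, genes of a few CPM, passed or missed it by setting. The part of depth was not tested.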

Other observations

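The long transcript Kcnq1ot1, which is read from the strand opposite to Kcnq1 and is known for its part in imprinting of that locus, is no channel subunit but lies within Kcnq1. It measured 9.25, 3.79 and 4.6 CPM in the sham libraries, 2.98, 3.33 and 3.25 CPM after ligation and 2.55, 1.8 and 3.31 CPM with cells. Sham libraries were above all others, the first sham library most of all. It was lower after ligation (log2 fold change -0.86, SE 0.332, edgeR adjusted p = 0.047) and against sham with cells (log2 fold change -1.19, SE 0.339, edgeR adjusted p = 0.0079), with -0.33 (edgeR adjusted p = 0.658) for cells minus ligation. Kcnq1 itself was highest with cells. Kcnq1ot1 overlaps 2.96% of the exon length of Kcnq1, and without a stated strand setting reads there cannot be told apart.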
